A study of Homo sapiens with 6 samples.

Results

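Camptothecin-treated HCT116 cells carried 313 clusters of DNA double-strand breaks (DSBs) that were present at both 10 and 20 min of treatment and whose midpoints lay over 5 kb from the 5′ end of every protein-coding gene. HCT116 is a human colorectal carcinoma line, and DSBs were mapped by END-seq with 2 biological replicates per group. The groups were untreated cells (Ctrl), cells given 10 µM camptothecin (CPT) for 10 min (CPT10) and cells given the same dose for 20 min (CPT20), with murine pre-B cells added to every sample as a spike-in. Sample titles write 10 and 20 as µM, whereas the treatment protocol gives them as minutes, and the latter was used here. The 4 treated libraries have peak lists, and Ctrl entered only as the input of the authors' peak calling. No break level in untreated cells measured the same way can therefore be given. Each list has a single expected height for the whole genome, so peaks were not scored against the local signal of untreated cells. A cluster here need not exceed its level in untreated cells.

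A cluster was built from strand-specific peaks. In each library a DSB site ran from a reverse peak to its closest forward peak, where both overlapped or the forward peak began under 150 bp downstream. Sites shared by both replicates of a time were merged, and those shared by both times were called persistent. Of 5788 clusters in all, 931 were persistent, 2958 were transient (10 min only) and 1899 were late (20 min only). Among the 931 persistent clusters, 413 lay at coding gene 5′ ends, 118 lay within 1 Mb of a large unsequenced gap (1 Mb or longer), and 87 lay off chromosomes 1 to 22, which left the 313. Presence in all 4 libraries is what selected them and is therefore no result.

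DNA topoisomerase I (Top1) relaxes supercoiled DNA by cutting a single strand, letting it rotate and sealing it again. CPT traps the enzyme on the cut strand as a cleavage complex, and such a complex can be turned into a DSB when a replication fork or the transcription machinery meets it. Torsional stress, and with it Top1 activity, is known to be high along strongly transcribed genes. END-seq ligates an adapter to free DNA ends in agarose-embedded cells and reads away from the break, so a DSB leaves a reverse peak on its left and a forward peak on its right.

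Windows of 300 bases from 3 of the highest clusters are shown first, because they contrast repeated with unrepeated sequence. Each is centred on the median break point and given on the plus strand of hg19. Capitals mark bases covered by a 31-base stretch found more than once in the reference. The first is MTCO1P12, a nuclear pseudogene copy of mitochondrial cytochrome c oxidase subunit 1, at chr1:567429-567728. The second is the start region of the long noncoding gene LINC02901 at chr6:159290317-159290616. The third lies in the exon of MALAT1, an abundant nuclear long noncoding RNA of splicing speckles, at chr11:65267858-65268157.
MTCO1P12: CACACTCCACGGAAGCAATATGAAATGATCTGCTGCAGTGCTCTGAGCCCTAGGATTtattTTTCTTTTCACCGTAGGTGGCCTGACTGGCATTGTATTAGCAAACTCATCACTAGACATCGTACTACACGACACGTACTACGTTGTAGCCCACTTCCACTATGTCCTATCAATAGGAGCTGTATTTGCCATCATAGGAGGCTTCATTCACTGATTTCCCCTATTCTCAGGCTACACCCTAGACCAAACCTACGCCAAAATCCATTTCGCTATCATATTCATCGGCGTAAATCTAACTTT
LINC02901: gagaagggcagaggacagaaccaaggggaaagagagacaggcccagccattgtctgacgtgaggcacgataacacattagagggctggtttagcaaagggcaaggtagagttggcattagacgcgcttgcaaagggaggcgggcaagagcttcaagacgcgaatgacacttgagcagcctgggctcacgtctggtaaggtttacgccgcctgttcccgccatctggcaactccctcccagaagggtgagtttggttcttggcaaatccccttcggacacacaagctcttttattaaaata
MALAT1: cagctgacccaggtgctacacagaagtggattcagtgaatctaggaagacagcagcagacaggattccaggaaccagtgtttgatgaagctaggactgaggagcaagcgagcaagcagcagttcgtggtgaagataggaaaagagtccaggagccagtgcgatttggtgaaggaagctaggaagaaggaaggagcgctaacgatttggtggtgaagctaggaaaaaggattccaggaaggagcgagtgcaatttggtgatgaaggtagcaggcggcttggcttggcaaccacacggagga

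In the MTCO1P12 window 296 of 300 bases were repeated, whereas the LINC02901 and MALAT1 windows held no repeated base.

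Height is given as the relative summit height, the number of fragments at a peak summit divided by the height expected for that list. For each cluster and library the tallest peak of each strand was taken, and both were averaged on a log scale. The peaks taken may belong to different sites, and a wider cluster can hold more peaks to choose from. The cluster in an intron of SENP5, a SUMO protease gene, was 161 bp wide and reached 341 and 347 in CPT10 replicates 1 and 2 and 301 and 267 in CPT20 replicates 1 and 2. Its 4 values were high in every library, both CPT20 values lay below both CPT10 values, and its break point moved by 16 bp between libraries. Of the 31-base stretches around this SENP5 cluster, 31.3% were found once in the reference. MTCO1P12 reached 722 and 188 in CPT10 replicates 1 and 2 and 446 and 117 in CPT20 replicates 1 and 2. Replicate 1 was far above replicate 2 at both times, and the 2 times overlapped. Of all 31-base stretches of the MTCO1P12 cluster, 74.9% also occur in the mitochondrial genome, and 19.2% were found once in the reference. Whether reads from other copies enter these 2 clusters was not tested.

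LINC02901 was the highest cluster without such repetition, with 84.5% of its 31-base stretches found once. Its relative height was 69.2 and 112 in CPT10 replicates 1 and 2 and 135 and 185 in CPT20 replicates 1 and 2. Both CPT20 values lay above both CPT10 values. The cluster covers chr6:159289269-159292491 and spans the annotated start of the gene, and each library placed 3 to 5 paired peaks in it. With EZR, which encodes the actin-to-membrane linker ezrin, and OSTCP1 nearby, this region held 5 clusters within 105 kb.

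VMP1, an autophagy gene, held the widest cluster of all, 12930 bp at chr17:57913056-57925985, which runs over the 3′ end of VMP1 and the microRNA gene MIR21. Its relative height was 79.3 and 120 in CPT10 replicates 1 and 2 and 89.6 and 75.1 in CPT20 replicates 1 and 2. The libraries overlapped, and they placed 5 to 10 paired peaks in it with leading break points up to 4968 bp apart. MALAT1 behaved similarly as a wide cluster of 9078 bp, with 77.4 and 146 in CPT10 replicates 1 and 2 and 55.3 and 81.2 in CPT20 replicates 1 and 2. Here, too, the times overlapped.

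The cytoplasmic actin gene ACTG1 gave 64.3 and 41.5 in the CPT10 replicates and 90.5 and 52.2 in the CPT20 replicates, and ACTB gave 33.6 and 39.7, then 40.3 and 44.7. The histone variant gene H3-3B gave 38.4 and 48.2 in CPT10 and 63.7 and 48.9 in CPT20. For ACTB and H3-3B both CPT20 values exceeded both CPT10 values, whereas ACTG1 overlapped. SAP30BP, the gene of the SAP30-binding protein, gave 36.9 and 40.2 and then 48.7 and 77.1, again without overlap. LINC02832 gave 29.8 and 86.1 in CPT10 and 39.8 and 77.0 in CPT20, a difference between replicates larger than that between times. The remaining clusters of the first 12 lay outside genes. The cluster on chromosome 17 gave 51.1 and 59.99 and then 54.3 and 50.5, and the cluster on chromosome 8 gave 35.1 and 36.3 and then 32.4 and 42.4.

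**Figure D1:**
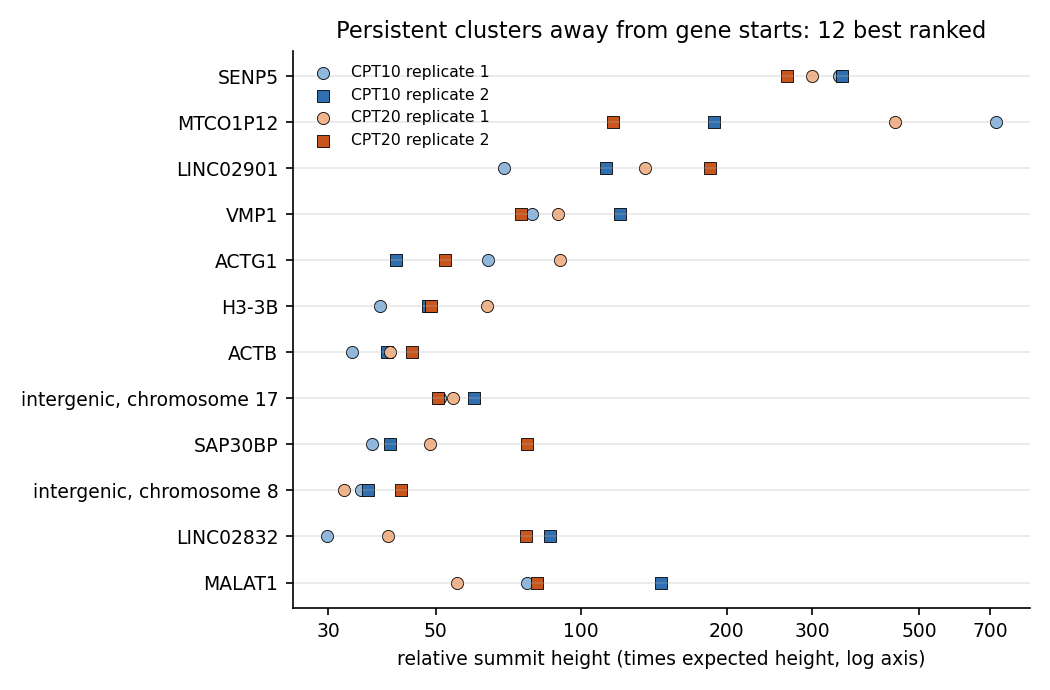
Relative summit height (x axis, log scale, times the expected height) of the 12 clusters ranked first by −log10 q, each taken at its poorest library, 1 point per library. SENP5 and MTCO1P12 lie above 100 in all 4 libraries, and LINC02901 does so in 3 of 4.

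The mean relative height over the 4 libraries had a median of 17.9 with quartiles of 14.9 and 22.3 over the 313 clusters, and 9 clusters exceeded 50. Single summits were shallow, with medians of 13 to 24 fragments per strand and library and a lowest summit of 4 fragments, so most single values carry a sizeable counting error. The median SD over the 4 libraries was 0.36 on the log2 scale. Only 40 clusters (12.8%) had a −log10 q of at least 10 in all 4 libraries. Per library, 186 and 83 clusters reached that level in CPT10 replicates 1 and 2, and 171 and 90 in CPT20 replicates 1 and 2. Replicate 2 of each time was the shallower list, with an expected height of 0.73 and 0.86 fragments in its forward lists against 1.44 and 1.23 in replicate 1.

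Persistent clusters at coding gene 5′ ends were used for comparison. They were wider (median 1996 bp against 1721 bp), and the part of width in the heights was not tested. In CPT10 replicates 1 and 2 the median relative height away from 5′ ends was 16.7 and 18.5 against 16.1 and 19.1 at 5′ ends, and in CPT20 replicates 1 and 2 it was 18.5 and 17.9 against 19.8 and 19.4. The mean log2 difference of -0.05 ± 0.08 (SD, n = 4 libraries) was lower in 3 of 4 libraries and within their spread (two-sided exact sign-flip permutation p = 0.375, with 0.12 the smallest value 4 libraries can give if taken as independent). Where only peaks reaching a −log10 q of 10 were paired, which leaves 42 clusters, the difference turned to 0.19, with the smallest p that 4 libraries allow. That alternative was chosen after seeing the data. It also selects on q, which rises with summit height, so it cannot decide a difference in height.

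The name of the class was next checked against the annotation, because a gene record has a single 5′ end whereas transcripts may start elsewhere. Of the 313 clusters, 131 (41.9%, 95% Wilson interval 36.5 to 47.4%) lay within 5 kb of the start of another transcript of a coding gene. All transcripts annotated to coding genes counted, whether or not the transcript itself codes. A further 58 (18.5%, 14.6 to 23.2%) lay as near to the 5′ end of a noncoding gene. By this check 189 clusters were not away from every annotated start. The remaining 124 comprised 52 in coding gene bodies, 34 in noncoding gene bodies and 38 outside genes. Among the bases of chromosomes 1 to 22 that the rule allows, 10.6% are near another transcript start of a coding gene. A further 10.5% are near a noncoding 5′ end and 32.8% lie outside genes.

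Clusters near other transcript starts of coding genes included those at ACTB, EEF1A1, SLC38A2 and PABPC1, whose expression was not measured here. ACTB lay 267 bp and EEF1A1, the translation elongation factor gene, 73 bp from such a start. The corresponding distance was 20 bp for SLC38A2, which encodes an amino acid transporter, and 197 bp for PABPC1, the gene of the poly(A)-binding protein. The noncoding starts were those of 38 long noncoding RNAs, 7 small nucleolar RNAs, 4 microRNAs and 9 genes of other types. NEAT1, the scaffold RNA of paraspeckles, and the small nucleolar RNA hosts SNHG6, SNHG12 and SNHG16 were among the best ranked. NEAT1 gave relative heights of 30.04 and 30.7 in CPT10 and 37.8 and 36.0 in CPT20, without overlap. Small RNA genes themselves lay under 7 clusters for microRNAs and under 8 for small nucleolar RNAs (2.24% and 2.56%), against 1.94% and 7.75% of clusters at coding 5′ ends.

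Location was also uneven by other measures, counted over all 313 clusters, those near other starts included. The midpoint fell inside an annotated gene for 262 clusters (83.7%, 95% Wilson interval 79.2 to 87.4%), compared with 63.0% of allowed bases, and inside a coding gene for 196 (62.6% against 46.0%). Exons held 89 midpoints (28.4% against 4.84% of allowed bases). Of these, 65 lay near another transcript start of a coding gene, 21 near a noncoding 5′ end and 3 in coding gene bodies away from both. The exon share thus came mostly from clusters near other starts. At most 5 kb from a coding gene's 3′ end lay 70 midpoints (22.4% against 4.94%). Late and transient clusters chosen by the same distances gave lower shares near another transcript start of a coding gene, 34.3% of 1022 and 20.9% of 2191. Their shares inside a gene were 79.2% and 70.8%, and their shares near a coding 3′ end were 17.3% and 9.31%. Persistent clusters at coding 5′ ends gave higher shares, with 40.7% in exons, 41.6% near a coding 3′ end and 94.9% inside a gene. Nearness to a coding 5′ end is what selected them, which bears on all of these shares. The allowed bases leave out the zones around coding 5′ ends, so they are no background for this class. The differences between these classes were not tested. Persistent clusters were also wider (median 1721 bp against 749 and 632 bp) and merge the sites of 4 libraries rather than 2, whose part in the width was not tested.

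**Figure D2:**
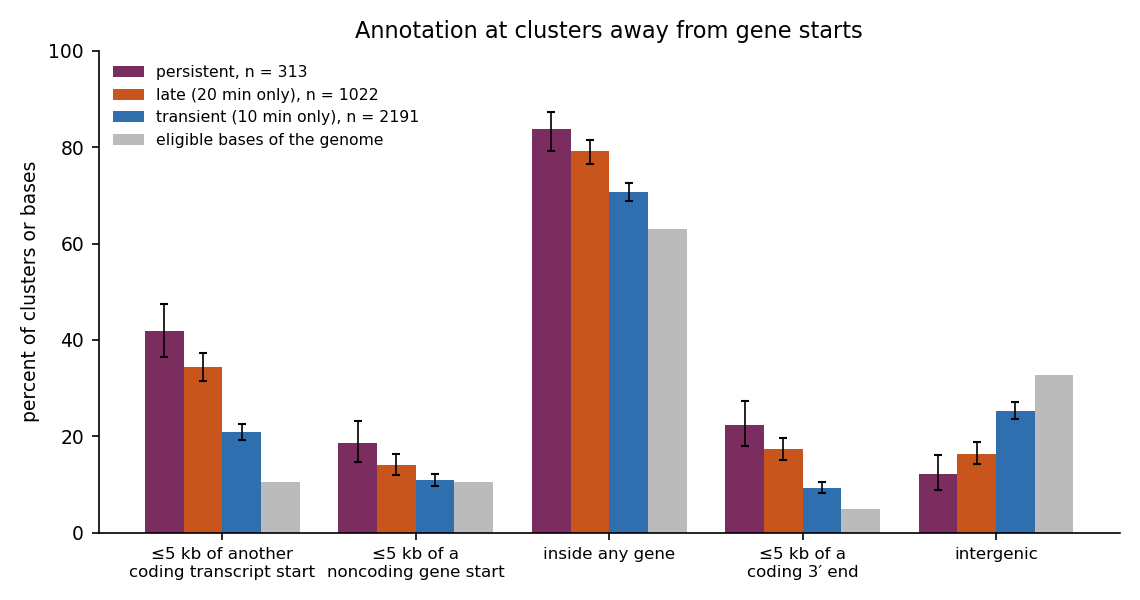
Percent of persistent, late and transient clusters away from coding gene 5′ ends (bars, with 95% Wilson intervals) and of the allowed bases (grey) in 5 annotation classes, which overlap. The persistent bars are the highest in all classes but intergenic, where 12.1% of clusters stand against 32.8% of bases.

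Long genes recurred among the hosts. The 153 coding genes that held a midpoint had a median length of 47.5 kb, against 27.6 kb for all 19222 coding genes on these chromosomes, and 27.5% of them exceeded 100 kb against 18.2%. A longer gene offers more bases to a midpoint. The rule also bars coding genes shorter than 5 kb, all of whose bases lie within 5 kb of their own 5′ end. Neither was corrected for.

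Clusters could lie close together. Joining those with midpoints within 50 kb gave 226 loci, of which 49 held at least 2 clusters and together 136 of the 313. The other classes of clusters were not joined this way, so no background share stands beside this count. The largest group lay on 9p around MIR31HG, the host of miR-31, with 9 clusters in 75.4 kb. Relative heights of the 7 clusters inside MIR31HG ran from 7.43 to 65.7 over the libraries. At the cluster over its 5′ end, CPT10 replicates 1 and 2 gave 19.8 and 65.7 and CPT20 replicates 1 and 2 gave 30.96 and 34.8, so that the replicates of 10 min differed more than the times. LINC-PINT on chromosome 7, another long noncoding gene, held 6 clusters, all in its body, between 7.53 and 27.4.

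Among coding hosts, PDE4DIP, which anchors phosphodiesterase to the centrosome, held 6 clusters with relative heights of 8.09 to 21.7, all of which also lie in the overlapping pseudogene record PDE4DIPP2. DLGAP1, a synaptic scaffold gene of 959 kb, held 5 clusters, of which 4 lay near noncoding starts, with heights of 11.5 to 43.3. DCBLD2, a transmembrane receptor gene, held 5 clusters, all in its body, with heights of 11.9 to 53.9. The protocadherin gene PCDH7 held 4 clusters, with heights of 11.7 to 58.9. VTI1A, which encodes a vesicle fusion protein, also held 4, all within 20.99 kb and between 13.3 and 29.0. NBPF1, of a family of segmental duplications, held 4 clusters too, and in 3 of them under 50% of 31-base stretches were found once. No such cluster fell in the other 8 hosts that held at least 4 clusters.

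Gene lists of known roles were then set against these hosts, with 0.796% of all coding genes and 0.379% of all long noncoding genes holding a cluster. Of 16 genes of colorectal epithelium, 3 held a cluster, namely KRT8 (a keratin), EREG (a ligand of the epidermal growth factor receptor) and CLDN4 (a tight junction protein). CLDN4 gave 40.0 and 26.0 in CPT10 and 39.5 and 20.4 in CPT20, and KRT8 gave 26.3 and 20.3 and then 20.4 and 31.9, both with overlap between times. EREG held 2 clusters, the higher of which gave 28.2 and 17.9 and then 23.01 and 15.1. Clusters at coding 5′ ends lay in 4 of the same 16 genes (KRT8, KRT18, KRT19 and EREG). None of 12 common fragile site genes and none of 18 topoisomerase and break repair genes held a cluster. Of 12 genes of nerve and muscle 1 did, the synaptic calcium sensor SYT1, with 13.6 and 54.8 and then 27.0 and 36.9. Of 12 long noncoding genes 6 did, NEAT1, MALAT1, SNHG15, UCA1, LINC00511 and PVT1, while 4 others of the 12 had a persistent cluster at a coding 5′ end. The lists were drawn up with earlier results of these data known, and expression was not measured here.

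Chromosomes differed in density. The 313 clusters amount to 12.6 per 100 Mb of allowed bases. Chromosome 17 held 40.9, chromosome 19 held 35.9 and chromosome 8 held 25.2 per 100 Mb, and chromosome 21 held none in its 30.7 Mb, which allows a density of up to 9.78 per 100 Mb by a count of 3. All single-strand peaks within 500 kb were also dense there, with a median of 2.07 times the genome mean around the clusters of chromosome 17 and 1.95 times around those of chromosome 8. Around the clusters of chromosome 19 it was 1.35 times, close to the 1.34 of all 313. Chromosome 10 went the other way, with a median of 1.95 times around its clusters and 12.2 clusters per 100 Mb. The part of peak density in the number of clusters, and that of DNA copy number, was not tested.

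Peaks were also raised for kilobases around the break points, as the plot of peak summits by distance shows. Within 200 bp of the break point, summits were 8.77 ± 4.30 times as dense as the genome mean (SD, n = 4 libraries), a value that the rule produces. At 2 to 5 kb, where some peaks still belong to the wider clusters themselves and so to the selection, the density was 2.66 and 2.84 in CPT10 replicates 1 and 2 and 2.87 and 4.30 in CPT20 replicates 1 and 2. Every library was above the genome mean. Flanks of clusters at coding 5′ ends gave 2.62, 2.48, 2.85 and 3.93. These densities are a description, and peaks outside the clusters were not counted separately. Without the 20 mostly repeated clusters the mean flank density was 3.24 rather than 3.16.

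**Figure D3:**
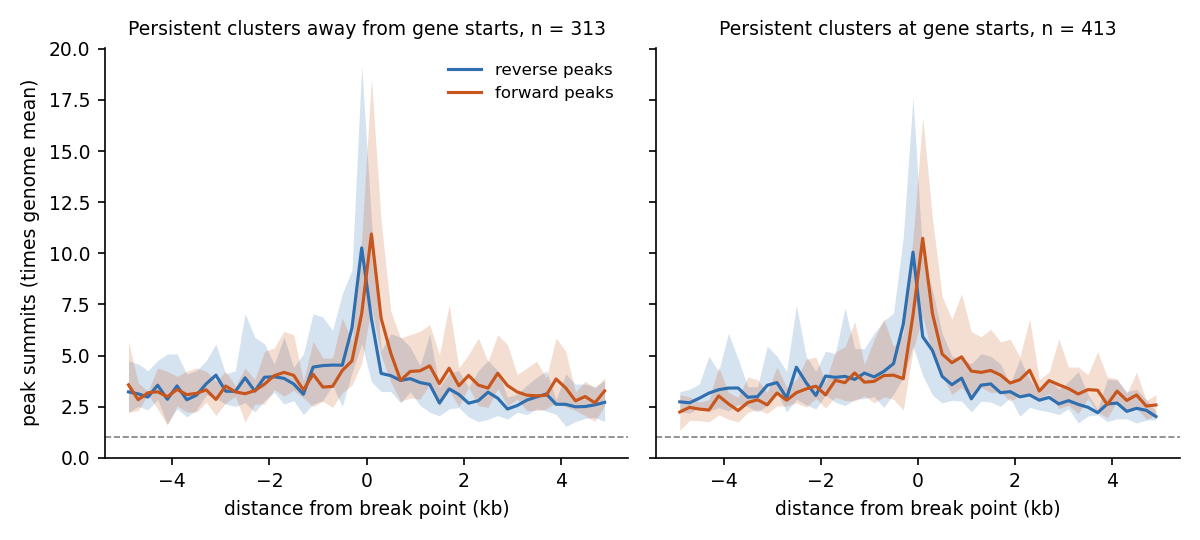
Density of reverse and forward peak summits (y axis, times the genome mean, dashed line at 1) by distance from the break point in kb, for 313 persistent clusters away from coding 5′ ends and 413 at them. Lines are means and bands the range over 4 libraries. Reverse summits peak just left and forward summits just right of the break point, and both stay above the genome mean out to 5 kb.

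A DSB puts the reverse summit on the left, and the pairing rule favours the same order, so the order of strands is given as a description. In CPT10 replicates 1 and 2, 65.2% and 65.5% of the 313 clusters had the reverse summit left of the forward summit, and in CPT20 replicates 1 and 2 68.7% and 72.2% did. The mean of 67.9 ± 3.28% (SD, n = 4 libraries) stood beside 68.7 ± 3.95% for clusters at 5′ ends, both including pairs that do not overlap and have this order by construction. Among overlapping pairs, where either order can occur, the mean share was 62.6 ± 4.63% (SD, n = 4 libraries), so that 37.4% of clusters with such a pair had the opposite order. It differed from the 64.05% at 5′ ends by less than the spread between libraries (two-sided exact sign-flip permutation p = 0.75).

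Heights of both strands were then oriented by the host gene, for the 228 clusters whose hosts lie on a single strand. In each cluster the tallest forward and the tallest reverse peak were compared, and these need not flank the same break. The log2 ratio of the strand pointing downstream in the host gene over the other strand was taken. It had medians of -0.14 and -0.10 in CPT10 replicates 1 and 2 and -0.11 and -0.06 in CPT20 replicates 1 and 2. The median thus favoured the strand pointing upstream in all 4 libraries (mean -0.10 ± 0.03, SD, n = 4, two-sided exact sign-flip permutation p = 0.12, the smallest possible). The test takes the 4 libraries as independent, although same-numbered libraries were read as pairs. Clusters at coding 5′ ends gave -0.22 ± 0.04, a stronger tilt in 4 of 4 libraries (difference 0.11 ± 0.05, exact sign-flip permutation p = 0.12). With coding hosts alone (193 clusters) the mean was -0.07. With peaks of −log10 q of at least 3 it was also -0.07, with an exact sign-flip permutation p of 0.25 rather than the smallest possible.

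The 300-base windows had a median GC content of 40.3%, against 43.0% at clusters at coding 5′ ends and 39.7% over 8268237 windows of the allowed genome. The AP-1 site TGANTCA, searched on both strands, occurred in 11.2% of windows against 9.40% of genome windows and 7.71% of 35116 RefSeq promoters of the same length. The GC box CCGCCC occurred in 7.03% against 3.66% and 45.0%, and the G-quadruplex pattern in 1.92% against 2.88% and 24.997%. The box TATAAA occurred in 23.003% against 30.2% and 11.5%. A match is only a string in these windows. Of the other strings searched, GGAATGGAA occurred in 3 windows (0.958% against 0.512% of genome windows and 0.416% of promoters) and CACACACAC in 3 (0.958% against 2.49% and 1.76%). AAAAAAAAA occurred in 23 (7.35% against 12.5% and 3.92%), and TTAGGGTTA in 0, against 0.173% and 0.0626%. Repeated sequence was more common, with 20 clusters (6.39%) in which under 50% of 31-base stretches were found once, against 7 (1.69%) at coding 5′ ends. Of the 20, 9 lay outside genes.

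Whether heights changed between 10 and 20 min was tested with limma over all 931 persistent clusters. No cluster passed an adjusted p of 0.05 (0.0% of 931), and the smallest adjusted p among the 313 was 0.996. At an unadjusted p under 0.05 there were 13 of 313 (4.15%), against 3.76% of all 931. With the experiment as a replicate block limma again called 0 clusters, with 29 of 313 and 74 of all 931 at an unadjusted p under 0.05. The smallest adjusted p among the 313 was then 0.180 (limma). Without CPT10 replicate 2 a single cluster passed (limma adjusted p = 0.0122), an AT-rich region outside genes at chr14:93624665-93626340 that is mostly repeated. Its heights were 5.20 and 27.7 in CPT10 replicates 1 and 2 and 13.1 and 31.8 in CPT20 replicates 1 and 2, so the replicates of each time differ more than the times. The SE of a log2 change had a median of 0.36, close to the size of many of the single changes.

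The median log2 change over the 313 clusters was 0.04, with single values from -1.23 to 1.13. It was within the spread between libraries (two-sided exact permutation p = 0.667 on the library medians, in a design whose smallest p is 0.33). Both CPT20 libraries lay above both CPT10 libraries in 57 clusters (18.2%), against 17.7% of all 931, and below them in 37 (11.8%), against 12.5%. LINC02901 had the largest change among the 12 best ranked clusters, a log2 change of 0.84 ± 0.37 (SE, limma), with an adjusted p of 0.996. Within same-numbered replicates the median change was 0.13 in replicate 1 and -0.05 in replicate 2.

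**Figure D4:**
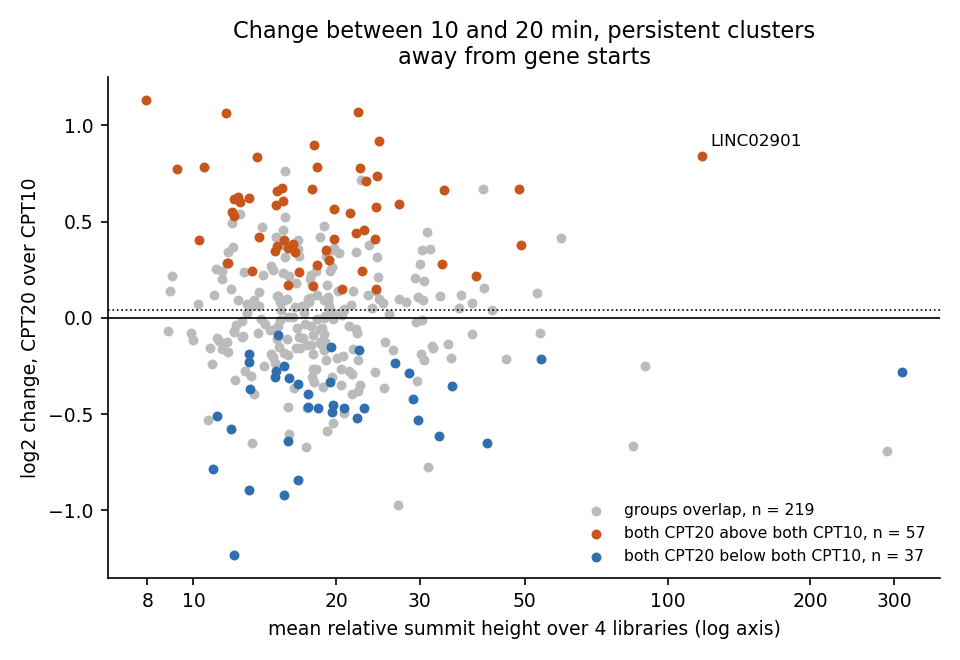
Log2 change of relative height, CPT20 over CPT10 (y axis), against the mean relative height over 4 libraries (x axis, log scale) for the 313 clusters, coloured by whether the libraries of the 2 times overlap. Changes scatter around the median of 0.04 (dotted line), and LINC02901 lies at 0.84.

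Values on both sides of the 5 kb limit overlapped. Just outside it lay clusters by HCN3, CIRBP and TRIB1, at 4828, 4831 and 4979 bp from the 5′ end, and just inside it lay those by FAM3C, NECAP1 and RPL9, at 5038, 5126 and 5156 bp. The −log10 q values of the former ranged from 2.93 to 36.4 and those of the latter from 1.57 to 17.4 over the libraries.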

How the data were processed

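END-seq peak lists of the 4 CPT-treated libraries (2 each for CPT10 and CPT20) were analysed, in 8 files with a forward and a reverse list per library. According to the study's methods, the authors trimmed reads with Trim Galore, aligned them to hg19 with Bowtie2, filtered them with SAMtools and called peaks with MACS2 per library and strand against the control library, without local background and with duplicates kept. Per the labels and file columns, the authors deposited a score per peak (10 times the −log10 q-value), the fold enrichment as a linear ratio, −log10 of the p-value and of the q-value, and the summit offset. Spike-in scaling does not enter these lists, and read totals were not used here. Each list has a single expected height, so summit heights in fragments were recovered from the fold values.

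Sites and clusters followed the stated rule. The study's removal of blacklisted regions was not repeated, and distance from large gaps stood in for it. Its limma test on normalised reads, which kept peaks enriched in treated over untreated cells, was not repeated either. The classes named persistent, transient and late here therefore require no increase over untreated cells, unlike those of the study. Genes came from GENCODE release 44 mapped to GRCh37, the build of hg19, and promoters from RefSeq. The members, gene lists and tests were chosen with earlier results of these data known. Clusters were named as the 12 ranked first by −log10 q, each taken at its poorest library, any passing the time test, the hosts of most clusters, those beside the 5 kb limit and genes of the lists. Other names were chosen after their values were seen. No sequence of an untranslated region or of chromosome 8 was printed. The sequence of the SENP5 cluster is not reported here. Relative heights were compared between times with limma 3.58.1 in R 4.3.3 on the log2 scale, fitted over all 931 persistent clusters with Benjamini-Hochberg adjustment and 2 libraries per time. The study's methods list 2 experiments, each with untreated, 10 min and 20 min cells, so same-numbered libraries were read as pairs (the labels do not state which number is which experiment), and their deviations correlated at 0.32 over 931 clusters. The design without the pairing was the planned one, and the blocked fit was an alternative. Library medians were compared by exact sign-flip or permutation tests. These took the 4 libraries as independent units and did not use the pairing, so their p-values may overstate the replication of 2 experiments. Intervals cover counting error only, because neighbouring clusters and duplicate reads are not independent. Pairing and the fit were tested on simulated data. Alternatives were thresholds on −log10 q, pairing distance, distance to 5′ ends and gaps, annotation, the height measure, strand, centring, a replicate block and leaving out each library.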

Additional observations from a re-analysis of the deposited data

How the results depend on the processing

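The number of 313 clusters depended on the definition. It was 42 with peaks of −log10 q of at least 10 and 486 with a distance over 2 kb. With the 5′ ends of all transcripts of coding genes it was 182, and with those of all genes 199. It stayed within 1.5 times under the other definitions tried, including 293 without mostly repeated clusters (an alternative chosen after seeing the data). Leaving out a library of either time gave 441 to 703 clusters, the most without CPT20 replicate 2 (703), then 594 without CPT10 replicate 2 and 479 without CPT10 replicate 1. Here all sites of the remaining library of that time were used without a replicate filter, so a higher count is built in. The share inside a gene was 78.6% with −log10 q of at least 10, 87.4% over 2 kb, 62.6% for protein-coding genes only and 82.3% to 83.5% without a library. The share with the reverse summit on the left was 62.6% among overlapping pairs, chosen after seeing the data. The planned restriction to non-overlapping pairs was not run, because the rule fixes it. The median log2 change between times turned to -0.043 with libraries centred on their medians and to -0.0034 on the reverse strand, and ran from -0.051 (without CPT10 replicate 1) to 0.11 (without CPT10 replicate 2), with -0.00076 without CPT20 replicate 1. The number of clusters called by limma was 0 to 1 over the fits without a library, and the call without CPT10 replicate 2 is given above. Against clusters at 5′ ends the height difference turned to 0.19 with −log10 q of at least 10, also chosen after seeing the data. The cause of these shifts was not tested beyond the construction of each alternative. With the replicate block limma called 0 clusters and the median change was 0.04, so the block changed no call between times. It did lower the smallest adjusted p among the 313 from 0.996 to 0.180 (limma). Clusters at an unadjusted p under 0.05 rose from 13 to 29. Shallow summits and 2 libraries per time limit what can be resolved.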
